A study of Homo sapiens with 18 samples.

Results

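The first of a pair of siRNAs against RagC, siRagC1, was compared with a control siRNA, siCtrl, in MDA-MB-231 cells, a human breast cancer line of the triple-negative type. All 6 siRagC1 libraries and all 6 siCtrl libraries of the series were used, 12 of 18 libraries in all. The other 6 libraries came from a second RagC siRNA, siRagC2, and entered the model through the shared estimates of spread and of the code series effect. The siRagC1 cells are labelled as a RagC knock-down and the siCtrl cells as wild type. Both groups were grown with 15% serum, received their siRNA by lipofection and were harvested 72 hours later, and 500 ng of total RNA went into each library. The stated purpose was to find genes dysregulated on mTORC1 repression, with RagC silencing as the means, and the study's title concerns TFEB and breakdown of the extracellular matrix. A knock-down by siRNA is partial, and only this 1 cell line was used. The numbered biological replicates are not stated to be separate cultures, so the p-values describe how these libraries vary, part of which may be technical.

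mTORC1 is a kinase complex that drives protein synthesis, ribosome production and nucleotide synthesis when amino acids are plentiful. RagC, encoded by RRAGC, works as a dimer with RagA or RagB that brings mTORC1 to the surface of the lysosome, and the folliculin complex sets the nucleotide that RagC carries. The same dimer presents the transcription factors TFEB and TFE3 to mTORC1. Phosphorylated, they stay in the cytoplasm; released, they enter the nucleus and switch on genes of lysosomes and autophagy through a short promoter element, called CLEAR, that is built around the letters CACGTG.

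Library codes fell into a D1103 series, which held replicates 1 and 2 of each group, and a D1221 series, which held replicates 3 to 6. Their meaning is not given in the labels, so the series was a covariate and values are given within each. The siRagC1 libraries held between 22.9 M and 55.4 M counts and the siCtrl libraries between 18.95 M and 44.3 M. The axes of variation were taken after the code series was removed from the values. On the leading axis, which held 24.5% of the remaining variance, siCtrl replicate 6 stood apart. On the next, which held 17.4%, siRagC1 replicate 4 did. In siRagC1 replicate 4 mitochondrially encoded genes took 2.55% of counts, against 4.08% to 6.19% in the other siRagC1 libraries and 4.15% to 6.63% in the siCtrl libraries. Most markers of the line were plentiful. The list of 10, with VIM, CD44 and AXL, summed to 8465 to 9927 CPM with siRagC1 and 8510 to 10128 CPM with siCtrl. CPM are counts per M of the library total after TMM scaling. VIM alone had at least 3850 CPM with siRagC1 and 3790 CPM with siCtrl. SPARC, also on the list, had at most 1.31 and 1.45 CPM. Of 10 markers of immune and blood cells, 3 had no count in any of the 12 libraries, and the 10 summed to between 0.564 and 1.95 CPM with siRagC1 and between 1.26 and 2.29 CPM with siCtrl. ESR1 and PGR, the hormone receptors that a triple-negative line lacks, had too few counts to be tested. They belong to a list of 8 genes held to be absent or low in the line, of which 4 were tested. ERBB2, also on that list, had 88.7 to 123 CPM with siRagC1 and 80.1 to 111 CPM with siCtrl. EPCAM, another member, had 15.3 to 19.3 CPM and 13.2 to 17.9 CPM. The 8 summed to 113 to 154 CPM with siRagC1 and 107 to 140 CPM with siCtrl.

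RRAGC (ENSG00000116954), the targeted gene, had 12.3 CPM in the lowest, 24.3 in the median and 31.9 in the highest siRagC1 library, against 60.6, 61.5 and 67.9 CPM in siCtrl libraries. The groups did not overlap, and the lowest siRagC1 levels were those of the D1103 libraries. Set against the siCtrl library with the same number, RRAGC stood at 27.7% and 20.2% in siRagC1 replicates 1 and 2 and at 51.0%, 40.9%, 38.5% and 52.2% in replicates 3 to 6. The log2 fold change was -1.43 ± 0.17 (SE; edgeR quasi-likelihood test with Benjamini-Hochberg adjustment, adjusted p = 0.000373), with -2.04 ± 0.22 in D1103 and -1.12 ± 0.15 in D1221. RRAGC was called lower without each single library in turn, with a log2 fold change between -1.51 and -1.31.

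**Figure D1:**
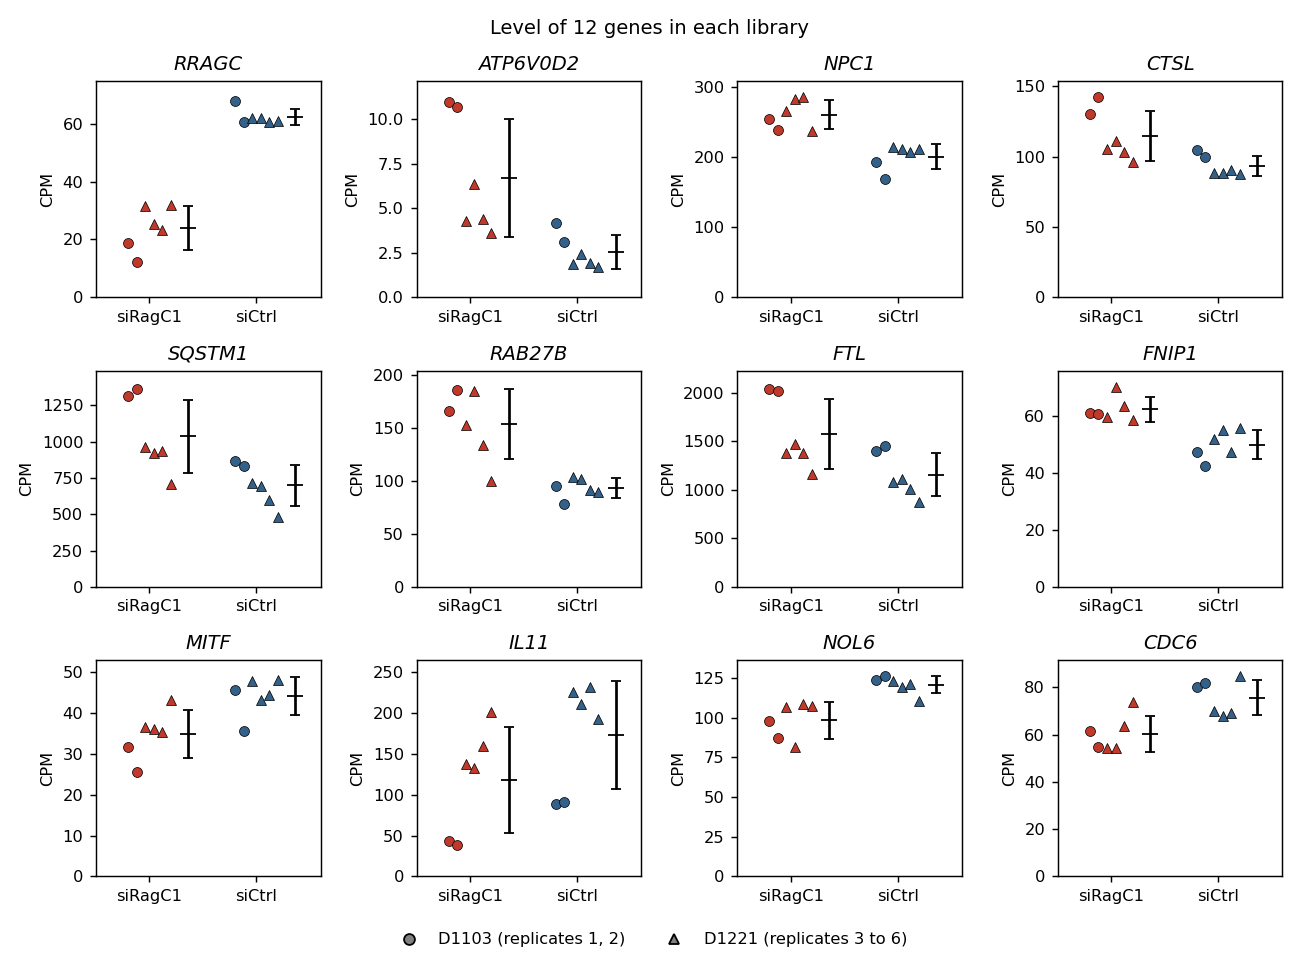
Level of 12 named genes in each of the 12 libraries, in CPM on a linear axis from 0. Circles are D1103 libraries, triangles are D1221 libraries, and the bar beside each group is its mean ± SD (n = 6). RRAGC lies between 12.3 and 31.9 CPM with siRagC1 and between 60.6 and 67.9 CPM with siCtrl; SQSTM1 and FTL differ between the series as well as between the groups, and IL11 is lowest in the D1103 libraries of both groups.

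Across the transcriptome the changes were many and small. Of 15307 genes tested, 216 (1.41%) were higher and 96 (0.627%) lower with siRagC1 at an adjusted p under 0.05, together 2.04% of those tested, and "rose", "fell" and "called" refer to these genes. An unadjusted p under 0.05 was found in edgeR for 2613 genes (17.1%), in either direction. The median log2 fold change was 0.35 among the higher genes, which included genes of lysosomal enzymes and ferritin. It was -0.22 among the lower genes, which included genes of ribosome assembly factors. Over all tested genes the median was 0.0051, with 51.7% positive. A change of under 1.5-fold was found for 182 of the 216 higher and 91 of the 96 lower genes. Of the called genes, 189 were higher and 90 lower in all 6 same-numbered pairs of libraries, which their selection on this comparison favours. The labels do not say that equal numbers are pairs. The CPM ranges of the groups did not overlap for 47 of the higher and 20 of the lower called genes. Among all tested genes, siRagC1 lay wholly above siCtrl for 79 (0.516%) and wholly below for 48 (0.314%). The number of calls depended on the model: the 12 libraries fitted alone gave 100 higher and 26 lower genes, DESeq2 gave 440 and 338, and leaving out the series term gave 6 and 1. It also depended on single libraries. Omitting siRagC1 replicate 1, 2, 3, 4 or 6 gave 92, 66, 113, 135 or 522 higher and 26, 12, 35, 49 or 371 lower genes. Omitting siCtrl replicate 1, 2 or 5 gave 76, 79 or 129 higher and 17, 24 or 47 lower, and the lower count alone moved to 46 without siRagC1 replicate 5 and to 153 and 186 without siCtrl replicates 3 and 6. The sign of a called gene did not change in any of these 12 omissions, and 58 higher and 10 lower genes were called in every one.

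**Figure D2:**
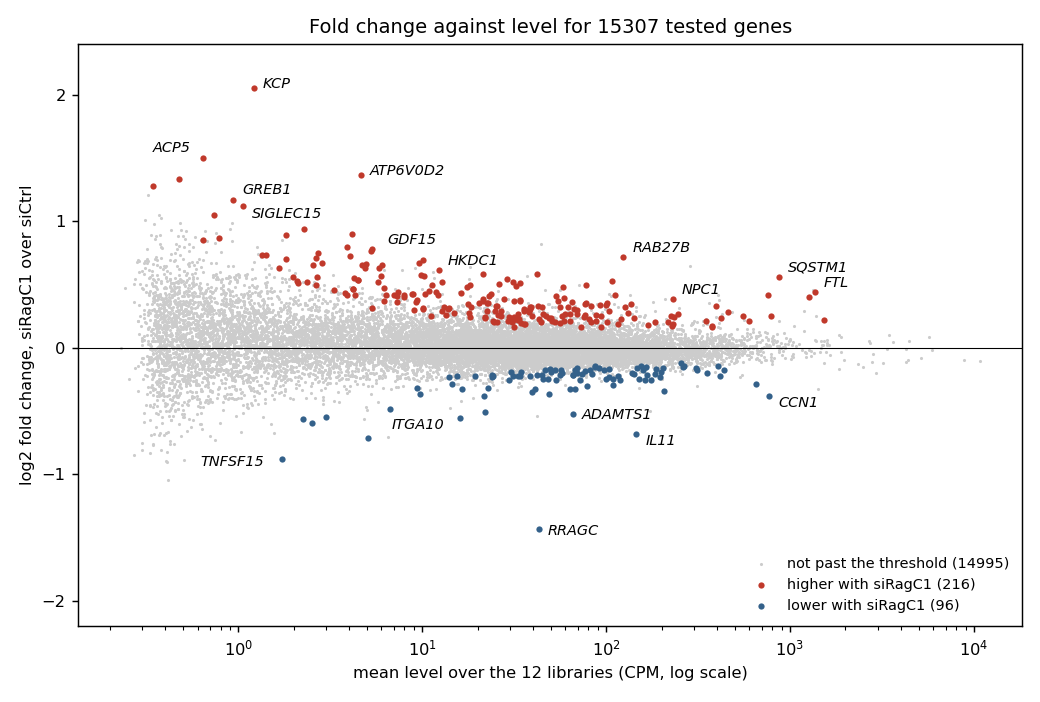
Log2 fold change of siRagC1 over siCtrl for the 15307 tested genes against their mean level over the 12 libraries (CPM, log axis). Red points are the 216 higher and blue points the 96 lower genes; RRAGC lies lowest at -1.43 and KCP highest at 2.05, and most called genes above 10 CPM lie within 0.6 of 0.

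A change of at least 2-fold was rare: 8 called genes (0.0523%) passed it upward and 1 (0.00653%), RRAGC, downward. KCP, a secreted protein that binds bone morphogenetic proteins, had 0.901, 1.63 and 3.21 CPM (lowest, median and highest library) with siRagC1 and 0.235, 0.532 and 0.616 CPM with siCtrl. All siRagC1 libraries lay above all siCtrl libraries. Its log2 fold change was 2.05 ± 0.23 (adjusted p = 0.000129), with 2.30 in D1103 and 1.79 in D1221. ATP6V0D2, a proton pump subunit best known from osteoclasts, had 3.60, 5.37 and 10.98 CPM with siRagC1 and 1.71, 2.17 and 4.14 CPM with siCtrl. The ranges overlapped only across the series, since D1103 libraries of both groups were the high ones: in D1103 the levels were 10.98 and 10.7 CPM against 4.14 and 3.12 CPM. Its log2 fold change was 1.36 ± 0.16 (adjusted p = 0.000129), with 1.59 in D1103 and 1.2 in D1221. KCP and ATP6V0D2 were called in all 12 single-library omissions.

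The other genes past 2-fold were expressed at low levels, below 2 CPM in every library. ACP5, the tartrate-resistant acid phosphatase of lysosomes and osteoclasts, had 0.663, 0.789 and 1.70 CPM with siRagC1 and 0.210, 0.318 and 0.565 CPM with siCtrl. The groups did not overlap, with a log2 fold change of 1.5 ± 0.34 (adjusted p = 0.0274). SIGLEC15, a sialic acid receptor that acts in osteoclast formation, rose by 1.12 ± 0.24 (adjusted p = 0.0187), and GREB1, an oestrogen-responsive gene, by 1.17 ± 0.26 (adjusted p = 0.0210). GCNT3, an enzyme of mucin-type glycan branching, rose by 1.27 ± 0.30 (adjusted p = 0.0300). The remaining pair were the noncoding transcripts EPM2A-DT (1.33 ± 0.28) and GAPLINC (1.05 ± 0.27); reads on opposite strands cannot be told apart here, because the strand setting of the counting is not given. Calls for these low-level genes were less stable. Omitting siCtrl replicate 2 took ACP5 to an adjusted p of 0.107, SIGLEC15 to 0.0767 and GREB1 to 0.0541. It took GCNT3 to 0.0852, EPM2A-DT to 0.0575 and GAPLINC to 0.144. The log2 fold changes of these genes then lay between 0.87 and 1.31. ACP5 also missed without siRagC1 replicates 1 or 2 and siCtrl replicates 1 or 5 (adjusted p between 0.0551 and 0.0899), SIGLEC15 without siRagC1 replicate 3 (0.0514) and GREB1 without siRagC1 replicate 2 (0.0724) or siCtrl replicate 1 (0.0749). GCNT3 kept its call in 6 and GAPLINC in 3 of the 12 omissions.

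Around RagC itself, folliculin and 1 of its partners rose and 1 transcription factor fell, of 6 tested folliculin complex and MiT/TFE genes. The shares were 33.3% higher and 16.7% lower, against 1.41% and 0.627% of all tested genes. FNIP1, a partner of folliculin in the complex that acts on RagC, had 58.8, 61.0 and 70.4 CPM with siRagC1 and 42.7, 49.7 and 55.8 CPM with siCtrl. The groups did not overlap, and the log2 fold change was 0.32 ± 0.06 (adjusted p = 0.0131), with 0.44 in D1103 and 0.26 in D1221. FLCN, folliculin, had 43.7, 51.6 and 59.7 CPM against 40.8, 45.3 and 47.1 CPM and rose by 0.23 ± 0.05 (adjusted p = 0.0300), with overlapping groups and a call in 6 of 12 omissions (adjusted p between 0.0626 and 0.0993 without siRagC1 replicates 1, 2, 3 or 5 or siCtrl replicates 1 or 2). MITF, a relative of TFEB, fell in all 6 same-numbered pairs and by 0.35 ± 0.07 on the log2 scale (adjusted p = 0.0166); without siRagC1 replicate 2 its adjusted p was 0.0612 and without siCtrl replicate 1 it was 0.0519. TFEB (0.06 ± 0.09, adjusted p = 0.790) and TFE3 (-0.14 ± 0.05, adjusted p = 0.180) did not pass the test, nor did the second folliculin partner FNIP2 (0.12 ± 0.07, adjusted p = 0.408), and TFEC had too few counts. Among the Rag GTPases and Ragulator, the anchor of the Rags on the lysosome, edgeR and limma-voom called 0 of the 9 tested members higher and DESeq2 3, and RRAGC was the member that fell. In edgeR 3 members were higher without siRagC1 replicate 6 and 1 without siCtrl replicate 3. RRAGD, the paralog of RRAGC, had a value of 0.42 ± 0.12 (adjusted p = 0.0628) and RRAGB, a partner of RagC, of 0.19 ± 0.06 (adjusted p = 0.0899), while the other partner RRAGA stood at 0.00 ± 0.04. The 29 tested mTORC1 subunits and nutrient sensors held 0 calls in edgeR, DESeq2 and limma-voom, and their median was 0.01. In edgeR 4 had an unadjusted p under 0.05, against 17.1% of all tested genes.

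Lysosomal enzymes made up the largest group of higher genes among the lists described. Of 57 tested lysosomal hydrolases and cofactors, 21 rose (36.8%, against 1.41% of all tested genes) and 0 fell in edgeR. A positive value was found for 50, and the median log2 fold change was 0.17, with 0.20 in D1103 and 0.14 in D1221. Of the 57, 6 lay wholly above siCtrl, against 0.516% of all tested genes. ASAH1, the acid ceramidase, had 75.3, 87.4 and 94.6 CPM with siRagC1 and 62.9, 68.6 and 68.9 CPM with siCtrl. Every siRagC1 library was above every siCtrl library. Its log2 fold change was 0.34 ± 0.05 (adjusted p = 0.00236). CTSH, an aminopeptidase cathepsin, had 10.5, 11.8 and 14.1 CPM against 6.75, 8.55 and 9.79 CPM, again without overlap, and rose by 0.57 ± 0.10 (adjusted p = 0.00577). CTSL, a cysteine protease that also cleaves matrix proteins, had 96.3, 108 and 142 CPM against 87.3, 89.5 and 105 CPM; the groups overlapped over the whole set but not within D1103 or within D1221, and it rose by 0.29 ± 0.04 (adjusted p = 0.00174). CTSD, the aspartic cathepsin, rose by 0.42 ± 0.08 (adjusted p = 0.0122). GM2A, the cofactor of ganglioside breakdown, rose by 0.27 ± 0.04 (adjusted p = 0.00247) and NPC2, the soluble carrier that hands cholesterol to NPC1, by 0.36 ± 0.07 (adjusted p = 0.00739).

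Other hydrolases that rose act on several kinds of substrate. For glycolipids and glycans these included NEU1, HEXA, GLB1 and MANBA, with log2 fold changes between 0.17 and 0.33. For proteins they included CTSA, CTSB, CTSF and TPP1, between 0.20 and 0.29, and for nucleic acid DNASE2, with 0.31. PSAP, the precursor of the sphingolipid activators, had 0.25 and SUMF1, which activates sulfatases, 0.23. Leaving out single libraries gave between 8 and 25 higher members, and the median stayed between 0.15 and 0.20. The count was 10, 8, 12, 13 and 18 without siRagC1 replicates 1 to 5 and 25 without replicate 6; it was 8, 11, 21, 19, 13 and 22 without siCtrl replicates 1 to 6, and 17 without both libraries that stood apart. Lower members numbered 2 without siRagC1 replicate 6, 1 without siCtrl replicate 3 and 1 by DESeq2. ASAH1, CTSH, CTSL, CTSD, GM2A and NPC2 were called in all 12 single omissions.

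Of 47 tested lysosomal membrane proteins and transporters, 6 rose (12.8%, against 1.41% of all tested genes) and 0 fell. The median was 0.095, with 40 positive values. NPC1, which exports cholesterol from the lysosome, had 237, 259.7 and 285 CPM with siRagC1 and 168, 208 and 214 CPM with siCtrl. The groups did not overlap, and the log2 fold change was 0.38 ± 0.05 (adjusted p = 0.000923), with 0.45 in D1103 and 0.35 in D1221. ABCB9, a peptide transporter, rose by 0.38 ± 0.07 (adjusted p = 0.00881), GLMP, which partners a lysosomal dipeptide transporter, by 0.27 ± 0.04 (adjusted p = 0.00175), and SLC17A5, the sialic acid exporter, by 0.25 ± 0.05 (adjusted p = 0.0160). CD63, a tetraspanin of late endosomes, rose by 0.16 ± 0.03, and MCOLN3, a cation channel, by 0.43 ± 0.10. The structural glycoproteins LAMP1 (0.12, adjusted p = 0.204) and LAMP2 (0.18, adjusted p = 0.0667) did not pass. The number of higher members was 3 without siCtrl replicate 1, 11 without siRagC1 replicate 6 and 9 without siCtrl replicate 3, and between 4 and 7 in the other single omissions. It was 8 without both libraries that stood apart.

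ATP6V0D2 was the 1 member of the 21 tested proton pump subunits that edgeR called (4.76%, against 1.41% of all tested genes). Its paralog ATP6V0D1, the widely expressed form of the same subunit, had a value of 0.04 (adjusted p = 0.771). The list median was 0.05, with 17 positive values, 1 member higher and 0 lower. At an unadjusted p under 0.05 in edgeR, 5 members were higher and 1 lower, against 17.1% of all tested genes in either direction. DESeq2 called 3 higher and limma-voom 1. Without siRagC1 replicate 6, 3 members were higher, and without siCtrl replicate 6, 2 were.

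**Figure D3:**
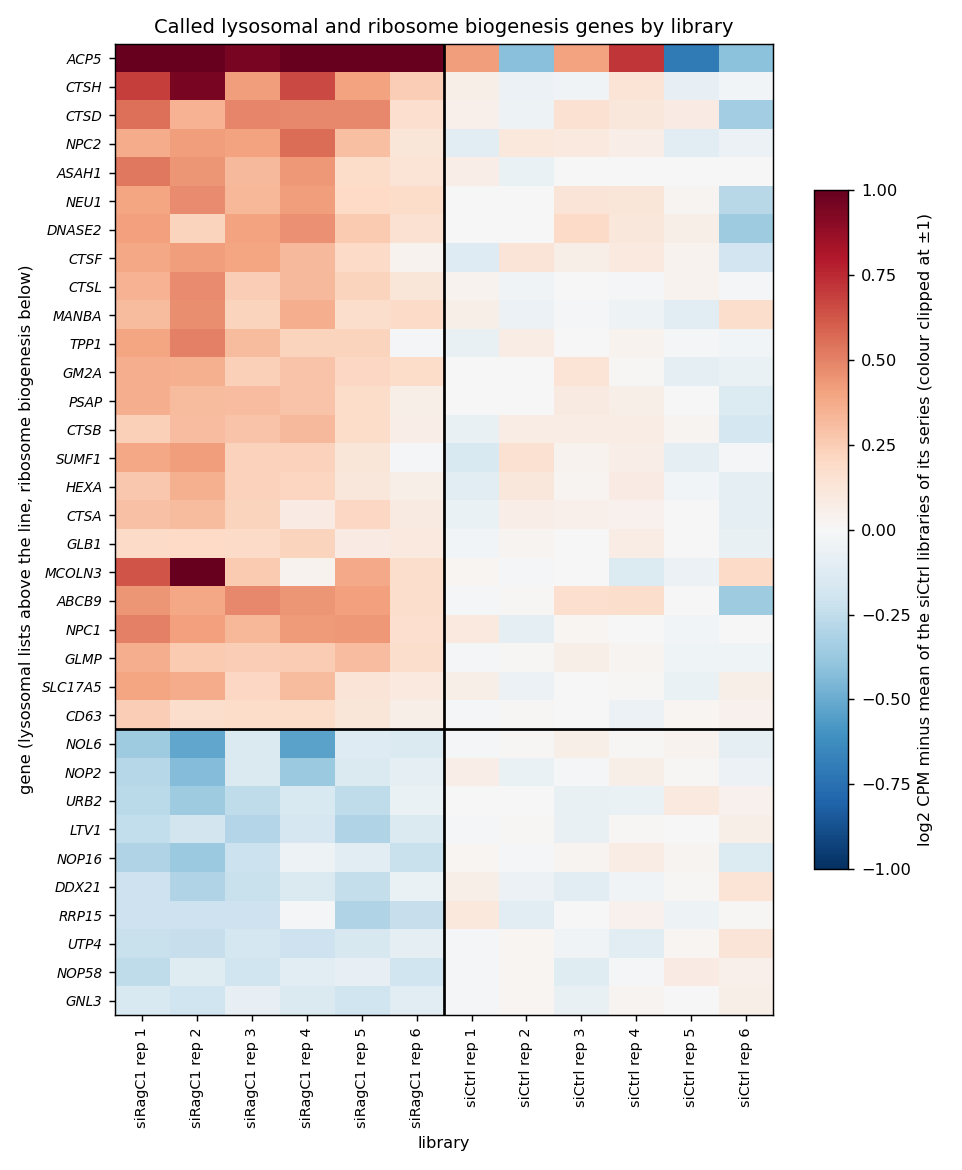
Log2 CPM of each library minus the mean of the siCtrl libraries of its code series, for called members of the lysosomal lists (above the line) and of the ribosome biogenesis list (below it); colours are clipped at ±1. The siRagC1 columns on the left are mostly red for lysosomal genes and mostly blue for ribosome biogenesis genes, and most lysosomal genes are pale in siRagC1 replicate 6; for these called genes the contrast is the one that selected them.

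Of 46 tested genes that place, fuse or release lysosomes, 5 rose (10.9%, against 1.41% of all tested genes) and 0 fell in edgeR, with a median of 0.05; DESeq2 called 6 higher and 0 lower. RAB27B, a GTPase of vesicle secretion, had 99.8, 160.0 and 186 CPM with siRagC1 and 78.5, 93.5 and 104 CPM with siCtrl. Of the siRagC1 libraries, replicate 6 was the one within the siCtrl range. The log2 fold change was 0.71 ± 0.12 (adjusted p = 0.00670), with 1.02 in D1103 and 0.56 in D1221, and RAB27B was called in all 12 omissions. RILP (0.35 ± 0.08), PLEKHM1 (0.32 ± 0.08) and VPS41 (0.21 ± 0.05), which tether late endosomes and lysosomes for transport and fusion, rose as well. PLEKHM1 has a near-identical copy, so its count is uncertain. Without siRagC1 replicates 1, 2, 3 or 4, or siCtrl replicates 1, 2, 4 or 5, between 1 and 3 members rose.

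SQSTM1, the receptor that carries cargo into autophagosomes, had 709.8, 951 and 1361 CPM with siRagC1 and 484, 705 and 864 CPM with siCtrl. It was higher in all 6 same-numbered pairs, although siRagC1 replicate 6 lay within the siCtrl range, and rose by 0.56 ± 0.09 (adjusted p = 0.00236), with 0.66 in D1103 and 0.50 in D1221. It was the called member among 16 tested autophagy receptors (6.25%, against 1.41% of all tested genes). Without siRagC1 replicate 6, 3 were higher, and DESeq2 called 2. Of 38 tested core autophagy genes, 0 passed the test in edgeR or limma-voom and 2 fell by DESeq2, and their median was 0.0083. In edgeR 9 had an unadjusted p under 0.05, against 17.1% of all tested genes. The members with the smallest p were ATG4A, which processes LC3 proteins (-0.25 ± 0.07, adjusted p = 0.0736), and BECN1, a subunit of the lipid kinase that starts autophagosomes (-0.10 ± 0.03, adjusted p = 0.121).

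Promoter letters were read for the genes that had an entry in the RefSeq table (GRCh38.p14), from 250 bases before to 50 bases after the start, which covered 11014 of the 15307 tested genes. The core CACGTG was present, on both strands since it is a palindrome, in 28 of 173 higher genes (16.2%), in 10 of 72 lower genes (13.9%), in 1106 of 11014 tested genes (10%) and in 7.43% of all promoters in the table. The longer form TCACGTGA, which contains the core, was present in 5 of 173 higher genes (2.89%), in 0 of 72 lower genes (0%), in 213 of the 11014 tested genes (1.93%) and in 1.04% of the table. Lysosomal hydrolases held the core in 25.6% and the longer form in 15.4% of 39 promoters, and ribosome biogenesis factors held the core in 39.2% and the longer form in 0% of 51. Of the 28 higher members of the lysosomal lists and the proton pump, 19 had a promoter in the table, 6 of them with the core (31.6%) and 1 with the longer form (5.26%). The 5 higher genes with the longer form were CTSA, ARMCX1, a mitochondrial outer membrane protein, IGF2R, the receptor that sorts hydrolases to lysosomes, ASB2, a ubiquitin ligase subunit, and WASHC2C, an endosomal sorting factor with a near-identical copy. They are shown in windows of 60 bases with 1 copy of the motif in capitals, followed by UTP4, a called ribosome biogenesis factor whose promoter holds the core alone. ARMCX1, IGF2R and WASHC2C were chosen after their values were seen.
CTSA, chr20:45891275-45891334, plus strand: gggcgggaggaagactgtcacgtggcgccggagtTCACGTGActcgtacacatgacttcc
ARMCX1, chrX:101550487-101550546, plus strand: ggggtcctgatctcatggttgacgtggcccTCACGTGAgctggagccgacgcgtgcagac
IGF2R, chr6:159968923-159968982, plus strand: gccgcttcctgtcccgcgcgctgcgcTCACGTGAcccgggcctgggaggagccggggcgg
ASB2, chr14:93976745-93976804, minus strand: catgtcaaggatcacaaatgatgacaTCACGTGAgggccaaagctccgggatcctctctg
WASHC2C, chr10:45727165-45727224, plus strand: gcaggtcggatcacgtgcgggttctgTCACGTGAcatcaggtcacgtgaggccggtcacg
UTP4, chr16:69132589-69132648, plus strand: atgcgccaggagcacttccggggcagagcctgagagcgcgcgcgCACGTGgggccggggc
In these windows the last base of the capitals lay 19 bases before the annotated start in CTSA, 23 in ARMCX1, 126 in IGF2R, 201 in ASB2, 68 in WASHC2C and 11 in UTP4. The log2 fold changes were 0.20 for CTSA, 0.24 for ARMCX1, 0.21 for IGF2R, 0.78 for ASB2, 0.20 for WASHC2C and -0.18 for UTP4. The WASHC2C window holds further copies of the motif and of the core in lower case, and the CTSA window a further core. A match is a description of the letters in the window.

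Ferritin RNA rose, as did RNA of lysosomal genes. FTL, the ferritin light chain, had 1167, 1429 and 2045 CPM with siRagC1 and 879, 1097 and 1452 CPM with siCtrl. The ranges overlapped across the series, but within D1103 and within D1221 every siRagC1 library was above every siCtrl library. Its log2 fold change was 0.44 ± 0.06 (adjusted p = 0.000373), and that of FTH1, the heavy chain, was 0.40 ± 0.06 (adjusted p = 0.00218); both have processed pseudogenes, so counts can be shared. They were the 2 called members of 26 tested NRF2 targets (7.69%, against 1.41% of all tested genes), a list whose median was -0.02. By DESeq2, 3 members were higher. Among genes restrained by insulin signalling through FOXO factors, 3 of 24 rose (12.5%, against 1.41% of all tested genes) and 0 fell: KLHL24 (0.55 ± 0.09, adjusted p = 0.00426), with 31.0, 34.2 and 37.7 CPM against 20.5, 23.2 and 26.8 CPM and no overlap, TRIB1, a pseudokinase (0.38 ± 0.09), and KLF6, a zinc-finger factor (0.17 ± 0.04). KLHL24 was called in all 12 omissions, while the list held 1 call without siRagC1 replicates 1, 2 or 4 or siCtrl replicates 1, 2 or 5, and 6 without siRagC1 replicate 6.

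Other genes with large changes did not belong to a single pathway. SULT1C2, a sulfotransferase, rose by 0.77 ± 0.12 with no overlap, SLC14A1, a urea transporter, by 0.67 ± 0.09 (adjusted p = 0.000373) and HKDC1, a hexokinase-like enzyme, by 0.61 ± 0.11. SLC37A2, a sugar phosphate exchanger, rose by 0.49 ± 0.07 (adjusted p = 0.000494), and PADI1, which converts arginine to citrulline, by 0.57 ± 0.10. ASB2 (0.78), AK5, an adenylate kinase (0.65), PPARGC1A, a coactivator of mitochondrial genes (0.63), HS1BP3 (0.58), CD22, a sialic acid receptor known from B cells (0.58), and CYRIA, a Rac1-binding protein (0.57), were also among the 15 genes with the largest increases at a mean of at least 5 CPM. Of these, ASB2 missed the threshold in 8 omissions (siRagC1 replicates 2 to 5 and siCtrl replicates 1, 2, 5 and 6, adjusted p up to 0.104) and AK5 in 3 (siRagC1 replicates 1 and 2 and siCtrl replicate 2, up to 0.0729).

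**Figure D4:**
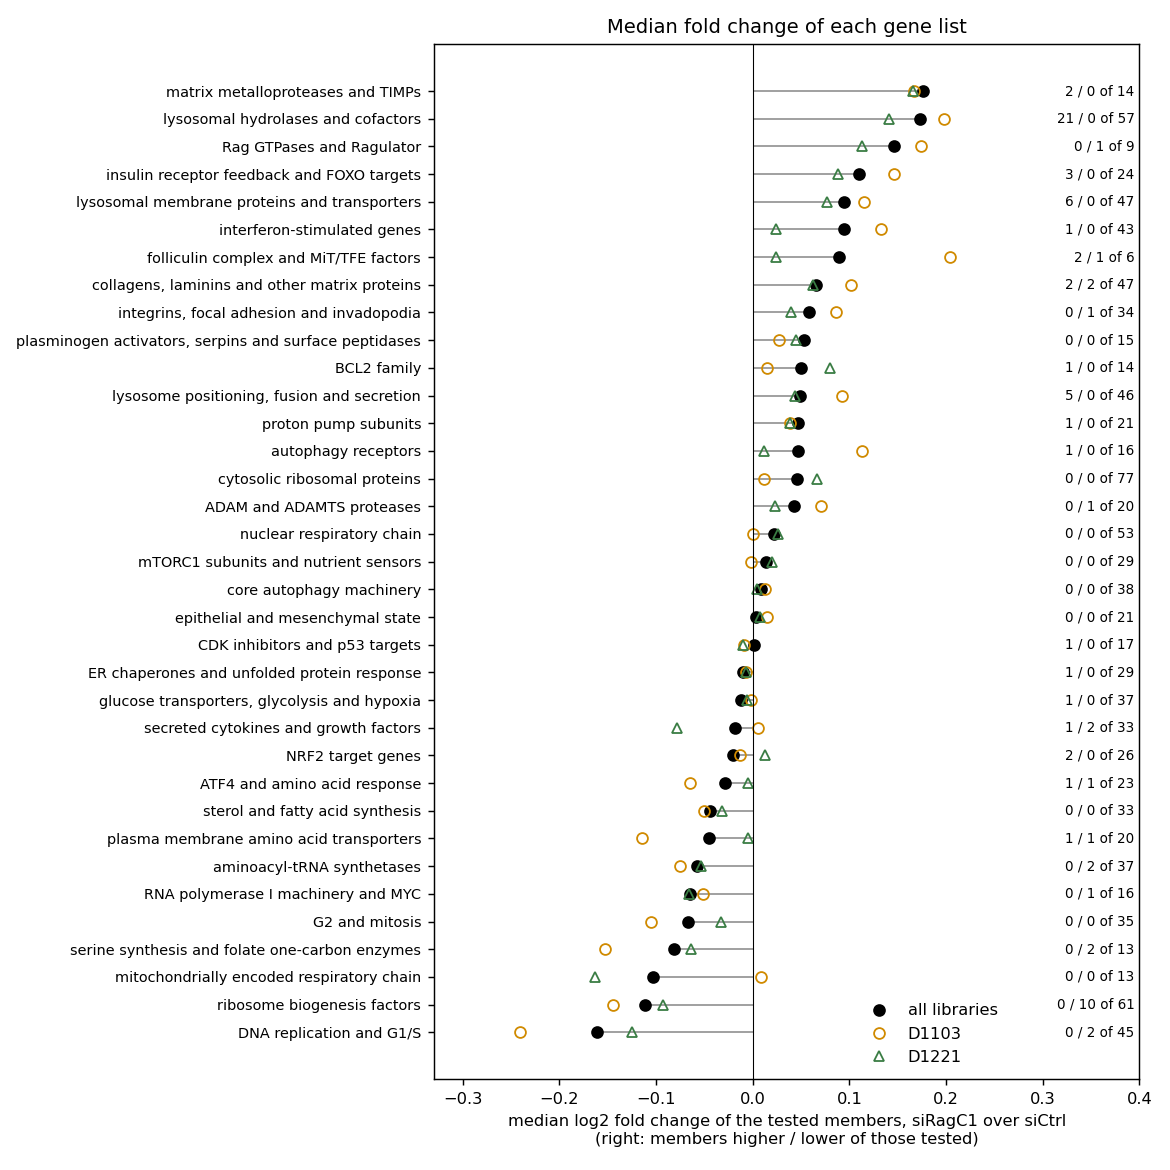
Median log2 fold change of the tested members of 35 gene lists over all libraries (black), in D1103 (open circles) and in D1221 (open triangles), with the number of members called higher and lower of those tested at the right. Lysosomal hydrolases lie at 0.17, and ribosome biogenesis and DNA replication lie lowest, at -0.11 and -0.16; the median of all tested genes was 0.0051.

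Ribosome assembly genes moved the other way. Of 61 tested ribosome biogenesis factors 10 fell (16.4%, against 0.627% of all tested genes) and 0 rose, and 58 had a negative value; the median was -0.11, with -0.14 in D1103 and -0.09 in D1221. NOL6, a nucleolar RNA-associated protein of the small subunit, had 81.7, 102 and 108 CPM with siRagC1 and 110.5, 122 and 126 CPM with siCtrl. All siRagC1 libraries were below all siCtrl libraries, and the log2 fold change was -0.30 ± 0.06 (adjusted p = 0.0163). NOP2, an RNA methyltransferase of the large subunit, had 81.2, 94.2 and 98.5 CPM against 101, 107 and 119 CPM, also without overlap, and fell by 0.24 ± 0.06 (adjusted p = 0.0292). LTV1, needed to export small subunits, fell by 0.22 ± 0.05, DDX21, an RNA helicase, by 0.20 ± 0.04 and URB2 by 0.23 ± 0.05. NOP16, UTP4, GNL3, RRP15 and NOP58 were the other 5, with log2 fold changes between -0.22 and -0.15. Single omissions changed the count: it was 2, 1, 5, 7, 7 and 20 without siRagC1 replicates 1 to 6, and 1, 2, 13, 6, 4 and 14 without siCtrl replicates 1 to 6. The list median stayed between -0.12 and -0.11, and without both libraries that stood apart 13 members fell. DESeq2 called 22 lower.

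Of the genes that transcribe ribosomal RNA, 1 of 16 fell (6.25%, against 0.627% of all tested genes). It was POLR1E, a polymerase I subunit (-0.21 ± 0.05, adjusted p = 0.0332). The count was 0 without any of siRagC1 replicates 1 to 5 or siCtrl replicates 1, 2 or 5. MYC, which drives ribosome production, stood at 0.03 (adjusted p = 0.824). The ribosomal proteins themselves did not share the direction: of 77 tested, 0 were called in edgeR, DESeq2 or limma-voom. In edgeR 7 had an unadjusted p under 0.05, against 17.1% of all tested genes. A positive value was found for 71, with a median of 0.05, made up of 0.01 in D1103 and 0.07 in D1221. Many have processed pseudogenes.

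DNA replication and G1/S genes had the lowest median of the 35 plotted lists, -0.16, with 43 of 45 negative, -0.24 in D1103 and -0.13 in D1221. CDC6, which loads the replicative helicase, had 54.3, 58.1 and 73.8 CPM with siRagC1 and 67.7, 75.0 and 84.6 CPM with siCtrl, and MCM10, a fork assembly factor, had 31.6, 35.3 and 46.3 CPM against 41.3, 46.8 and 49.5 CPM. Both were lower in all 6 pairs, with overlap through siRagC1 replicate 6. They were the 2 members that fell (4.44%, against 0.627% of all tested genes). CDC6 fell by 0.32 ± 0.08 (adjusted p = 0.0364) and MCM10 by 0.33 ± 0.08 (adjusted p = 0.0363). CDC6 kept its call in 4 and MCM10 in 3 of 12 single omissions: 0 members fell without siRagC1 replicates 1 to 5 or siCtrl replicates 1, 2 or 6, each left out alone, or without both libraries that stood apart, and 14 fell without siRagC1 replicate 6, 6 without siCtrl replicate 3 and 3 without siCtrl replicate 4. The list median lay between -0.21 and -0.12 over these omissions. In bulk RNA, fewer cells in a phase of the cycle and less RNA per cell cannot be told apart. Of 35 genes of G2 and mitosis 0 were called by edgeR, DESeq2 or limma-voom, with a median of -0.07. In edgeR 0 had an unadjusted p under 0.05, against 17.1% of all tested genes. DESeq2 called 7 replication genes lower.

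In amino acid metabolism a few enzymes fell. MTHFD2, a mitochondrial folate enzyme, had 32.1, 44.3 and 49.5 CPM with siRagC1 and 39.2, 51.7 and 56.3 CPM with siCtrl, and was lower in all 6 pairs although the ranges overlapped. It fell by 0.25 ± 0.04 (adjusted p = 0.00577), and PSAT1, an enzyme of serine synthesis, by 0.30 ± 0.06 (adjusted p = 0.00881). Both were called in all 12 omissions. They were the 2 lower members of 13 in the list (15.4%, against 0.627% of all tested genes). Of 37 aminoacyl-tRNA synthetases 2 fell (5.41%) and 0 rose in edgeR, while DESeq2 called 4 lower and 1 higher. The edgeR pair were MARS1 (-0.19 ± 0.04, without overlap) and GARS1 (-0.15 ± 0.04). That count was 0 without siRagC1 replicates 1, 2 or 4 or siCtrl replicates 1, 2 or 4, and 5 without siCtrl replicate 6. In the ATF4 list, CEBPG, a partner of ATF4, fell by 0.21 ± 0.05 (adjusted p = 0.0177). Its adjusted p was 0.0659 without siRagC1 replicate 2 and 0.0648 without siCtrl replicate 1. The stress cytokine GDF15 rose by 0.69 ± 0.17 (adjusted p = 0.0426). Each made up 4.35% of the 23 tested members, whose median was -0.03. Of all tested genes, 1.41% were higher and 0.627% lower. The GDF15 groups did not overlap, with 10.8, 12.2 and 14.1 CPM against 3.68, 8.09 and 10.02 CPM, but its adjusted p was between 0.0519 and 0.115 in 8 of the 12 omissions (siRagC1 replicates 1 to 5 and siCtrl replicates 1, 2 and 5). EIF2S1, a subunit of the initiation factor on which amino acid stress acts, fell by 0.25 ± 0.05 (adjusted p = 0.00809), and ARG2, the mitochondrial arginase, by 0.51 ± 0.10 (adjusted p = 0.0140; 0.0566 without siRagC1 replicate 2) with no overlap between groups.

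Genes of the extracellular matrix and its proteases, the subject of the study's title, changed in small number. Of 14 tested matrix metalloproteases and their inhibitors, 2 rose (14.3%, against 1.41% of all tested genes) and 0 fell in edgeR and DESeq2. By limma-voom 1 rose and 0 fell. The median was 0.18, and 3 rose without siRagC1 replicate 6. TIMP2, an inhibitor of these proteases that also helps activate MMP2, had 620.0, 633 and 693 CPM with siRagC1 and 517, 561 and 579.8 CPM with siCtrl. The groups did not overlap, and TIMP2 rose by 0.21 ± 0.03 (adjusted p = 0.00240), with a call in all 12 omissions. MMP15, a membrane-bound protease, rose by 0.52 ± 0.13 (adjusted p = 0.0488) but missed the threshold in 9 of 12 omissions, all except siRagC1 replicate 6 and siCtrl replicates 3 and 4 (adjusted p between 0.0731 and 0.129). The collagenases MMP1 (0.17, adjusted p = 0.334) and MMP14 (0.17, adjusted p = 0.294) did not pass. ADAMTS1, a secreted protease of proteoglycans, had 35.96, 51.4 and 84.7 CPM against 65.6, 72.7 and 96.0 CPM and fell by 0.52 ± 0.12 (adjusted p = 0.0300). It was the 1 called member among 20 ADAM and ADAMTS proteases (5% lower, against 0.627% of all tested genes). It kept its call in 4 of 12 omissions, without siRagC1 replicates 5 or 6 or siCtrl replicates 3 or 4. Its adjusted p reached 0.0869. Of 47 collagens, laminins and other matrix proteins, 4.26% were called in each direction: MEGF6 (0.52 ± 0.11) and LAMA3, a laminin chain (0.32 ± 0.07), rose, and CCN1, a matricellular protein (-0.38 ± 0.09), and COL8A1, a collagen chain (-0.21 ± 0.05), fell. Without siRagC1 replicate 2, or without siCtrl replicate 1, none of the 4 was called. CCN1 kept its call without siRagC1 replicate 6 or siCtrl replicates 3, 4 or 5, and COL8A1 without siRagC1 replicate 6 or siCtrl replicates 3 or 6. LAMA3 also missed without siRagC1 replicates 3 or 4 or siCtrl replicates 2 or 4. Of 34 integrin and focal adhesion genes ITGA10 fell (2.94%, against 0.627% of all tested genes), by 0.56 ± 0.11 (adjusted p = 0.0155; 0.0526 without siRagC1 replicate 1 and 0.0546 without siCtrl replicate 2); 4 other members were higher without siRagC1 replicate 6 and 1 by DESeq2. Of 15 plasminogen activators, serpins and surface peptidases 0 were called by edgeR or limma-voom and 1 by DESeq2. In edgeR 2 had an unadjusted p under 0.05, against 17.1% of all tested genes.

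Of 33 tested cytokines and growth factors, 2 fell (6.06%, against 0.627% of all tested genes). GDF15 was the 1 that rose (3.03%, against 1.41%), and the median was -0.02. The count that fell was 4 without siCtrl replicate 6, 1 without siRagC1 replicate 2 and 3 without both libraries that stood apart. HBEGF, a ligand of the EGF receptor, had 49.8, 58.1 and 61.6 CPM with siRagC1 and 66.04, 70.8 and 74.2 CPM with siCtrl. The groups did not overlap, and it fell by 0.33 ± 0.05 (adjusted p = 0.00109), with a call in all 12 omissions. IL11, a cytokine of the IL-6 family, had 37.9, 135 and 201 CPM against 89.0, 202 and 232 CPM. The D1103 libraries of both groups were the low ones, at 43.6 and 37.9 CPM against 89.0 and 90.6 CPM, and replicate 6 was the 1 pair of 6 in which siRagC1 was above siCtrl. It fell by 0.69 ± 0.13 (adjusted p = 0.0155), with -1.14 in D1103 and -0.45 in D1221, and its adjusted p was 0.0540 without siRagC1 replicate 2. RGMB, a co-receptor of bone morphogenetic proteins, fell by 0.34 ± 0.06 (adjusted p = 0.00714) in all 6 pairs.

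Several programs held few or no calls. In edgeR, DESeq2 and limma-voom 0 members passed among 33 genes of sterol and fatty acid synthesis (median -0.04), 53 nuclear genes of the respiratory chain (0.02) and 13 mitochondrially encoded ones (-0.10); in edgeR 2, 2 and 0 of them had an unadjusted p under 0.05. Of 21 genes of epithelial and mesenchymal state (median 0.0033), edgeR and limma-voom called 0 and DESeq2 1, with 4 at an unadjusted p under 0.05 in edgeR. Over all tested genes, 17.1% had an unadjusted p under 0.05. IFIH1, a sensor of viral RNA, was the 1 of 43 interferon-stimulated genes that rose, a share of 2.33% against 1.41% of all tested genes (0.42 ± 0.08; adjusted p = 0.0124, and 0.0502 without siRagC1 replicate 2). Without siRagC1 replicate 6 the list held 4 higher members and without siRagC1 replicate 4 it held 2, as it did with DESeq2. BMF, a proapoptotic protein, was the 1 that rose of 14 in the BCL2 family (7.14%, against 1.41% of all tested genes). It rose by 0.66 ± 0.14. Its adjusted p was between 0.0504 and 0.0784 without siRagC1 replicates 2 or 3 or siCtrl replicates 1, 2 or 5. Among the markers of the cell line, CAV1, the caveolar coat protein, fell by 0.17 ± 0.04 without overlap of the groups (399 to 423 CPM against 432 to 485 CPM); it missed the threshold without siRagC1 replicates 1 to 5 or siCtrl replicates 1, 2 or 5 (adjusted p up to 0.0828).

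Among the called genes the median log2 fold change was farther from 0 in D1103 than in D1221, a difference of medians that was not tested. It was 0.43 in D1103 and 0.29 in D1221 for the higher genes, and -0.31 and -0.18 for the lower genes. All 216 and all 96 had the same sign in both series, which their selection over both series favours. Fitted alone, the D1103 libraries (n = 2 per group) gave 343 higher and 211 lower genes, and the D1221 libraries (n = 4 per group) gave 0 and 1, RRAGC. A test of the difference between the series found 0 genes with edgeR, where 310 (2.03%) had an unadjusted p below 0.05, and 0 with DESeq2 or limma-voom. D1103 and D1221 share no library, so genes called in D1103 alone were read in D1221. Of 341 genes higher in D1103 and tested in both, 338 (99.1%) were positive in D1221 and 168 (49.3%) were also past an unadjusted p of 0.05 there, against 52.2% and 3.90% of all 14990 genes. Of 211 lower genes, 204 (96.7%) were negative in D1221 and 61 (28.9%) also passed, against 47.8% and 2.74% of all genes. The median change of these genes was 0.40 in D1103 and 0.23 in D1221 for the higher set, and -0.32 and -0.13 for the lower set; selection in D1103 alone favours larger values there. This reading was chosen after seeing the data.

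**Figure D5:**
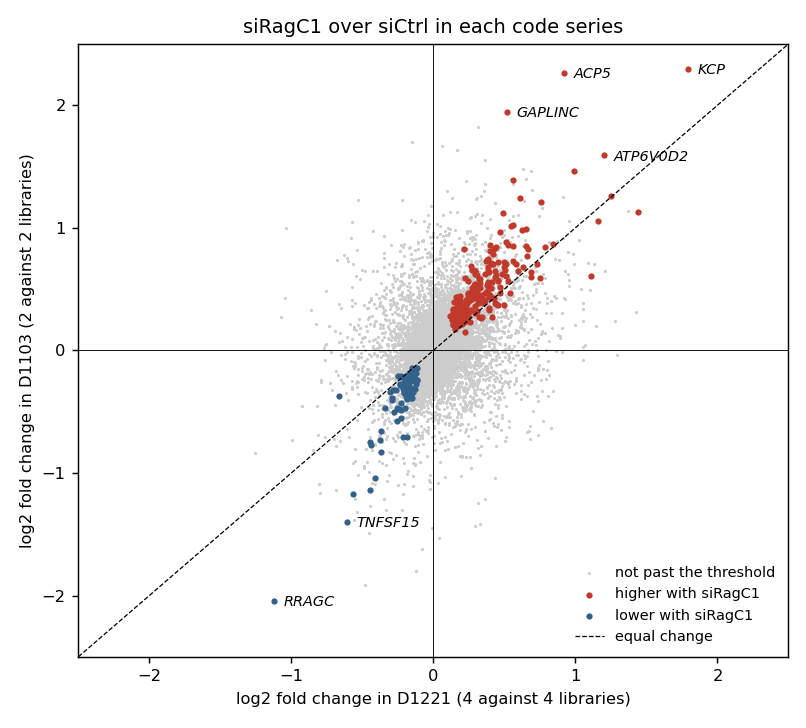
Log2 fold change of siRagC1 over siCtrl in D1103 (n = 2 per group) against that in D1221 (n = 4 per group), with the genes called over all libraries in red and blue and equality as a dashed line. All called genes lie in the quadrants of equal sign and most lie farther from 0 in D1103, RRAGC at -2.04 and -1.12; the axes leave out 1 gene, which was not called.

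siRagC2 was measured against the same 6 siCtrl libraries, so its values are not independent of those of siRagC1. As examples, its log2 fold change was 2.11 for KCP, 0.87 for ATP6V0D2, 0.32 for ASAH1, 0.27 for NPC1, 0.34 for FTL and -0.28 for HBEGF, all called. For RAB27B it was 0.37 (adjusted p = 0.105) and for MITF -0.19 (adjusted p = 0.163). Tested directly, siRagC1 and siRagC2 differed for 0 of 15307 genes by edgeR (0%), although 1187 (7.75%) had an unadjusted p below 0.05. DESeq2 called 29 genes and limma-voom 0. RRAGC itself differed by -0.23 ± 0.17 between siRagC1 and siRagC2 (adjusted p = 0.792).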

How the data were processed

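The authors deposited raw counts per gene for all 18 libraries in 1 table. The submitters' processing notes name GRCh37/hg19 as the build, STAR 2.7.6a and cutadapt 0.6.2; they give no role for each, and the counter, strand setting and annotation are not stated in the labels. Of 57820 identifiers, 51996 matched a symbol. Groups and replicate numbers came from the labels and the code series from the library codes.

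The fit over all 18 libraries, with terms for group and code series, used edgeR 4.0.16 under R 4.3.3 (filterByExpr, TMM factors, robust quasi-likelihood test). The filter left 15307 genes, 14845 with a symbol, and a call required an adjusted p (Benjamini-Hochberg, over all of them) under 0.05. CPM used TMM-scaled library sizes. The procedure was also run on simulated data, and how well small changes were recovered there is not reported here.

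The comparison, the 41 gene lists (1206 members, 1172 matched, 1073 tested) and the rule for named genes were chosen with earlier results of these data known, so lists are described by counts and medians and not tested. The text names the Rag, folliculin and MiT/TFE genes; called genes past 2-fold; the 15 higher and 15 lower with the largest change at 5 CPM or more; the 5 with the smallest p in each direction; up to 5 called members per list, or 2 of a list with none; and cell type markers. Members beyond 5 in a list, and genes described as not passing that the rule does not name, were chosen after their values were seen. Results of some genes that the rule or lists give are not reported here singly. Of the 312 called genes, 79 were in a list and 233 in none.

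Over 30 pairs of same-group libraries, counts varied between 2.81 and 81.7 times as much as counting error alone gives, so none was a duplicate. Alternatives tried were upper-quartile and RLE factors, no filter, 5 CPM in 6 libraries, DESeq2 1.42.0, limma-voom (limma 3.58.1), a replicate block, no series term, the 12 libraries alone, each series alone, each replicate number and each single library left out, an adjusted p under 0.01 and a fold of at least 1.2. Leaving out both libraries that stood apart, and list counts without single libraries or by other tools, were added after seeing the data. Promoters came from RefSeq (GRCh38.p14), matched by gene, and no coordinate of the count table was used.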

Additional observations from a re-analysis of the deposited data

Results flagged for a closer look

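In 15 of 258 groups of 6 libraries (129 named genes in each of the groups), 1 library lay far from the other 5, with a gap above 0.625 of the group's range; chance gives about 1 in 20. Among genes described above, RRAGC was highest in siCtrl replicate 1 (67.9 CPM), ACP5 in siRagC1 replicate 1 (1.70), MCM10 in siRagC1 replicate 6 (46.3) and ARG2 in siCtrl replicate 1 (32.97). GREB1 was lowest in siCtrl replicate 1 (0.342), ASAH1 in siCtrl replicate 2 (62.9) and RRAGA in siCtrl replicate 6 (72.0). MT-ND5 (3898 CPM) and MT-ND6 (86.1), subunits of respiratory complex I encoded in mitochondria, were highest in siCtrl replicate 2, and the ribosomal protein gene RPL10A was lowest in siCtrl replicate 1 (354). In siRagC1 libraries, EGFR was highest in replicate 4 (725), the histone gene H2BC11 was highest in replicate 6 (5.07), the galectin gene LGALS1 was lowest in replicate 6 (427) and the endothelial marker KDR was lowest in replicate 3 (4.57). The marker LYZ was highest in siCtrl replicate 1 (1.13 CPM). The part of single libraries in these values was not tested.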

How the results depend on the processing

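RRAGC stayed lower and called in the alternatives run, with log2 fold changes from -2.04 (D1103 alone) to -1.12 (D1221 alone) and from -1.54 to -1.28 when a replicate number or a library was left out. Counts of higher and lower genes moved by more than 1.5 times with no filter (596 and 203), DESeq2 (440 and 338), a replicate block (503 and 361), no series term (6 and 1), the 12 libraries alone (100 and 26), D1103 alone (343 and 211), D1221 alone (0 and 1) and an adjusted p under 0.01 (46 and 8); a fold of at least 1.2 left 27 lower. Leaving out a replicate number or a library gave 31 to 643 higher and 2 to 535 lower genes. Between the siRNAs DESeq2 called 29 genes. Promoters with TCACGTGA in place of CACGTG made up 2.89% of higher, 0% of lower and 1.93% of all tested genes. Of the 81 called genes that the naming rule gives beside RRAGC, 0 changed sign in the alternatives run, and 76 missed the threshold without the series term and 81 with D1221 alone; 0 did with DESeq2 or the replicate block. Of 41 list medians, 6 moved by more than the spread between replicates (1 SD) in some alternative, and 14 changed sign in some alternative. Of these 14, the mitochondrially encoded list was farthest from 0, at a median of -0.10, and the others lay within 0.067 of 0.

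Deviations of same-numbered libraries correlated at 0.610, 0.605, 0.180, 0.0765, 0.175 and 0.499 for numbers 1 to 6, and at 0.261, 0.261, 0.254, -0.0745, 0.0597 and 0.299 after the code series was removed. Because number 4 was under 0.1, the numbers were not taken as pairs. A library's own number was its best match for 5 of 6 siRagC1 and 4 of 6 siCtrl libraries, a hint from the data. That match was made before the code series was removed, so a shared series can contribute to it. With the replicate block RRAGC was -1.44. Genes below 1 CPM rest on few counts, and their values are the least precise.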

Other observations

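Of the 312 called genes, 233 belonged to none of the lists, and those named here were chosen after their values were seen. The following genes of lipid handling, picked as examples and not tested as a group, were higher with siRagC1: PLIN2, a coat protein of lipid droplets (0.25 ± 0.05, adjusted p = 0.00764), with 89.4, 97.9 and 122 CPM (lowest, median and highest library) against 83.3, 84.9 and 89.7 CPM with siCtrl; SLC27A1, a fatty acid transporter (0.42 ± 0.07, adjusted p = 0.00240); ACSL1, a fatty acyl-CoA synthetase (0.25 ± 0.05, adjusted p = 0.0166); CYP27A1, a sterol hydroxylase (0.38 ± 0.10, adjusted p = 0.0427); and ABCA1, a cholesterol exporter of the plasma membrane (0.53 ± 0.12, adjusted p = 0.0262). ABCA1 had 104, 119 and 189 CPM against 61.1, 97.9 and 107 CPM, so the groups overlapped slightly, and it missed the threshold without siRagC1 replicates 1 or 2 or siCtrl replicates 1 or 2 (adjusted p up to 0.0782). CYP27A1 kept its call only without siRagC1 replicate 6 or siCtrl replicate 3, and ACSL1 missed without siRagC1 replicates 1 or 2 or siCtrl replicate 2. TMEM97, a sterol-associated membrane protein, was lower, by a log2 fold change of -0.24 ± 0.06 (adjusted p = 0.0332), and missed the threshold without siRagC1 replicates 1 to 5 or siCtrl replicates 1, 2 or 5 (adjusted p up to 0.107). PLIN2 and SLC27A1 were called in all 12 omissions of a single library.

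GRN, the precursor of the lysosomal granulins, rose by 0.25 ± 0.06 (adjusted p = 0.0300), GNPTAB, which tags hydrolases for the lysosome, by 0.26 ± 0.06 (adjusted p = 0.0249), and LGALS3, a galectin that gathers on damaged lysosomes, by 0.23 ± 0.06 (adjusted p = 0.0433). IGF2R, the receptor for that tag, had 351, 367 and 422 CPM with siRagC1 and 294, 324 and 339 CPM with siCtrl, without overlap. All 4 missed the threshold when siRagC1 replicate 1, 2 or 4 or siCtrl replicate 1 or 2 was left out (adjusted p between 0.0501 and 0.136). PIM1, a serine kinase, had 32.9, 38.2 and 42.7 CPM against 26.7, 30.0 and 31.9 CPM, without overlap, and rose by 0.37 ± 0.05 (adjusted p = 0.000546), with a call in all 12 omissions.

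Lower genes outside the lists included enzymes of nucleotide and polyamine synthesis. CTPS1, which makes CTP, had 89.2, 107 and 130.4 CPM with siRagC1 and 115, 127 and 146 CPM with siCtrl, with overlap, and fell by 0.25 ± 0.05 (adjusted p = 0.0160). PPAT, the first enzyme of purine synthesis, fell by 0.20 ± 0.05 (adjusted p = 0.0348) and AMD1, which supplies polyamine synthesis, by 0.25 ± 0.05 (adjusted p = 0.0206). TNFSF15, a cytokine of the TNF family, fell by 0.88 ± 0.21 (adjusted p = 0.0332) at a low level, 0.779 to 1.83 CPM against 1.79 to 2.82 CPM. Without siRagC1 replicate 2, or siCtrl replicate 1 or 2, all 4 missed the threshold (adjusted p between 0.0501 and 0.112). PPAT also missed without siRagC1 replicates 1, 3, 4 or 5 or siCtrl replicate 4, TNFSF15 without siRagC1 replicates 1, 4 or 5, and AMD1 without siRagC1 replicate 3.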
